A study of Mus musculus with 7 samples.

Results

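The genes described here are 6 products of the mucosal defence of epithelia, Dmbt1, Pigr, Reg3g, Reg3b, Lcn2 and Bpifb1, of 22180 genes measured. They were chosen by gene symbol, with earlier results from these same arrays known (Dmbt1, Pigr and Reg3g had already been seen to lie above the control array), so their differences from the control are a description, and no test of them is read. All 6 were measured, and each had 1 probe set. The tissue was the gastric corpus, the acid-secreting body of the stomach, and the mice were Atp4b-DTR animals 8 to 12 weeks old. The Atp4b-DTR transgene puts a receptor for diphtheria toxin under the control of a parietal cell gene, so that the toxin kills the cells that secrete acid. Every mouse of the series carried it, the control included. The toxin mice received 225 ng of diphtheria toxin per mouse by intraperitoneal injection on 3 days in a row and were killed 24, 36, 48 or 72 h after the last dose, while the control received saline. The saline, 24 h and 36 h groups had 1 array each, and the 48 h and 72 h groups had 2 each. A group given toxin without the receptor was not analysed here.

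Mucosal surfaces are guarded by proteins that epithelial cells make and release. Pigr is the polymeric immunoglobulin receptor, which carries dimeric IgA made by plasma cells across the epithelium and is cut off at the lumen as secretory component. Dmbt1 is a large mucin-like glycoprotein of scavenger receptor cysteine-rich domains that binds bacteria. Reg3g and Reg3b are secreted C-type lectins that kill Gram-positive and Gram-negative bacteria in the intestine. Lcn2, lipocalin-2, withholds iron from bacteria by binding their siderophores and is also stored in neutrophil granules. Bpifb1 is a secreted protein of the bactericidal/permeability-increasing (BPI) fold family, best known from the airways.

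Of the members, 3 lay at least 2-fold above the saline array on all 6 toxin arrays (Dmbt1, Pigr and Bpifb1). Another, Reg3g, lay at least 2-fold above it on every array up to 48 h, and 1.48-fold and 1.69-fold above it at 72 h. The other 2 moved little (Reg3b and Lcn2). Over all genes, 0.122% lay at least 2-fold higher on all 6 toxin arrays, 20.2% lay higher by any amount on all 6, which 5 of the 6 members did, and 22.6% lay lower on all 6, which no member did. Since the members were proposed with these contrasts known, nothing is read from those counts.

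The 5′ regions of the immune receptor gene and of the lectin pair are shown first, because Pigr stood far above the saline array, whereas Reg3g and Reg3b, which are neighbouring relatives on chromosome 6, behaved differently; that of Lcn2, which did not stand apart from the saline array, is shown beside them. RefSeq windows of the build GRCm38.p6, from 250 bases before the annotated start to 50 after it, were found for 5 of the members. Dmbt1 had no entry. Those of Pigr, Reg3g, Reg3b and Lcn2 are given 5′ to 3′ on the strand of the gene, and those of Bpifb1 are not printed. Capitals mark matches, on either strand, to CACGTG (the E-box), TTCNNNGAA (the STAT element), TATAAAA (the TATA box) or GGGRNNYYCC (the NF-kappaB motif). In these motifs R is A or G, Y is C or T, and N is any base.
Pigr, chr1:130826434-130826733 (+ strand): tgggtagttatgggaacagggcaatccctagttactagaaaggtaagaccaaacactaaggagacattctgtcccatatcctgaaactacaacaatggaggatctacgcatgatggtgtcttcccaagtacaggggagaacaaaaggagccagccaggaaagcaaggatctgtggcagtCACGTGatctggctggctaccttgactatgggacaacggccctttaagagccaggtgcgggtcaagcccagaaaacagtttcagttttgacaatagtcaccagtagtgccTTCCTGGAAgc
Reg3g, chr6:78468825-78469124 (- strand): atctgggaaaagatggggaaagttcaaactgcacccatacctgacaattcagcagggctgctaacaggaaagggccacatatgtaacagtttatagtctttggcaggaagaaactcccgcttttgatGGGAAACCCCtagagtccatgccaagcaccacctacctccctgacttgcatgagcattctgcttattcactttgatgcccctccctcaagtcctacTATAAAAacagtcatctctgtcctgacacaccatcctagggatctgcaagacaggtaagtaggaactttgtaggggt
Reg3b, chr6:78370635-78370934 (+ strand): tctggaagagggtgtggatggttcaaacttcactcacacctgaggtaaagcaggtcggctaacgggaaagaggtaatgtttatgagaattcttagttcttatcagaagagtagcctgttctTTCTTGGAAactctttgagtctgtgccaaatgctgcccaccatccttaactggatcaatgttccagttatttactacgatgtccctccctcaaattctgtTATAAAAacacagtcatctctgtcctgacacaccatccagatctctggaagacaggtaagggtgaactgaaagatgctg
Lcn2, chr2:32387690-32387989 (- strand): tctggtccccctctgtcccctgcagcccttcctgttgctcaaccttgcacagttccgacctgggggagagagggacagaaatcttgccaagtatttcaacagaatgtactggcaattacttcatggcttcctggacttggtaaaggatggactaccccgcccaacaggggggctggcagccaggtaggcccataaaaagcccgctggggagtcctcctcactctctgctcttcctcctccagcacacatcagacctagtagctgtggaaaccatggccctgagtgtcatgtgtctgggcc
In these windows Pigr held an E-box match at -71 and a STAT match at 39, as the first base of the match counted from the annotated start at 0. The Reg3g and Reg3b windows were alike, with 210 of 294 aligned bases identical (71.4%), and both held TATAAAA, at -27 and -29. They differed in that Reg3g held an NF-kappaB match at -123 and no STAT match, and Reg3b a STAT match at -129 and no NF-kappaB match. The Lcn2 window held no match to the 4 motifs. Bpifb1 has 2 annotated starts, 1 with 2 overlapping NF-kappaB matches that share all but 1 base and the other with 1 STAT match. Of 32851 windows of this length, 7.15% held the E-box, 8.30% the STAT element, 5.48% TATAAAA and 8.46% the NF-kappaB motif. A match is a description of letters and not a binding site.

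**Figure D1:**
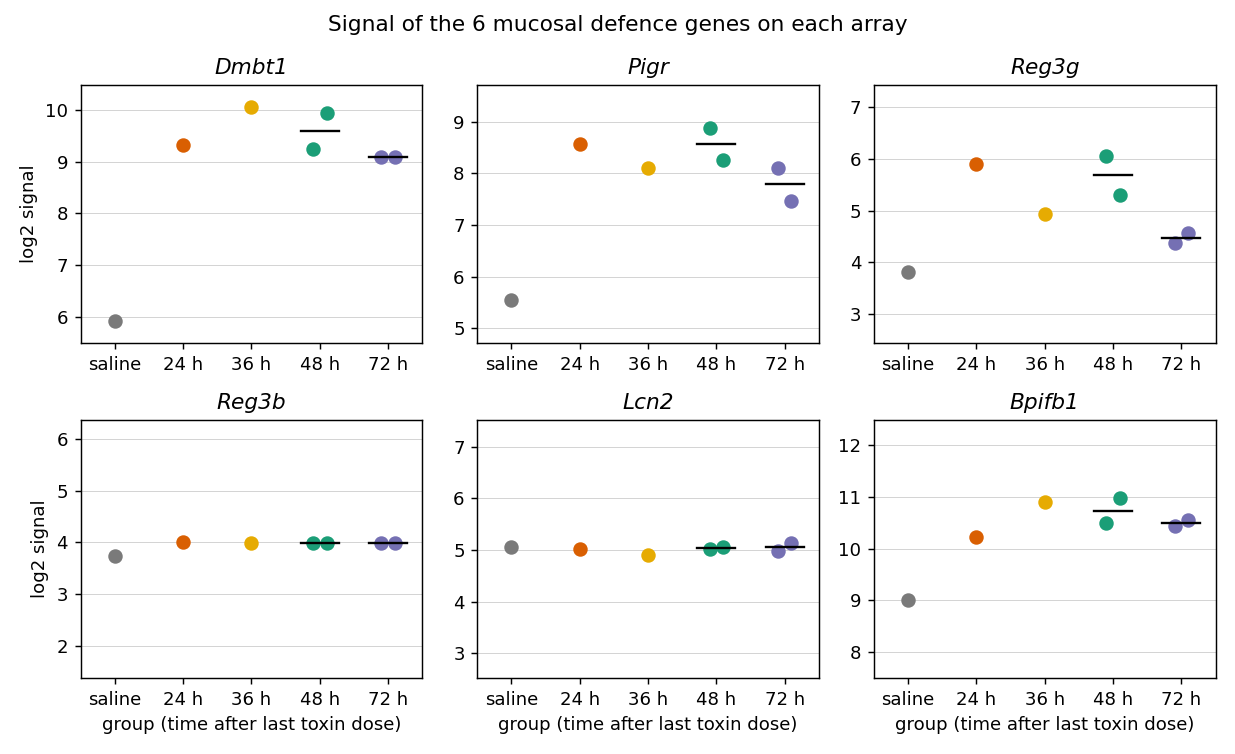
Log2 signal of each member (y axis, 5 log2 units tall in every panel) by group (x axis); each point is 1 array and the black lines are the means of the 2 arrays at 48 h and at 72 h. Dmbt1 stands at 5.91 in saline tissue and between 9.09 and 10.06 on the toxin arrays, whereas Reg3b and Lcn2 lie almost level.

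Dmbt1 lay furthest from the control of the 6. Its log2 signal was 5.91 on the saline array, 9.32 at 24 h and 10.06 at 36 h, then 9.25 and 9.94 on the 48 h pair and 9.09 on both arrays of 72 h. All 6 toxin arrays lay within 0.97 of each other and at least 3.18 above the saline array, so the groups did not overlap. In such bulk tissue, a change in the number of cells of a type and in RNA per cell cannot be told apart. In linear terms the signal was from 9.04-fold to 17.7-fold that of the saline array. Among all genes it had the largest increase of any gene on the 24 h array, and on the other toxin arrays it ranked between 5th and 7th. Mean differences from the control were 3.69 ± 0.34 at 48 h and 3.18 ± 0.34 at 72 h, where ± is the standard error of the limma fit, against a gap of 0.69 between the 2 arrays of 48 h. Its order of levels was saline, 72 h, then 24 h, 48 h and 36 h, and the 24 h value lay between the 2 arrays of 48 h.

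Pigr, too, lay far above the saline array on every toxin array, with its lowest toxin value at 72 h. Its log2 signal was 5.55 on the saline array, 8.57 at 24 h and 8.11 at 36 h, then 8.87 and 8.26 on the 48 h pair and 8.11 and 7.47 on the 72 h pair. Every toxin array was above the saline array, by 3.79-fold at the least, on the second 72 h array, and 9.98-fold at the most, on the first 48 h array. It had the second largest increase of any gene at 24 h. The mean difference from the control was 3.01 ± 0.43 at 48 h and 2.24 ± 0.43 at 72 h. Both arrays of 72 h lay below both arrays of 48 h, as did those of 13.0% of all genes. However, the 36 h array of Pigr gave the same value as the first 72 h array. The arrays of each pair differed by 0.61 at 48 h and 0.64 at 72 h, close to the mean difference of -0.77 ± 0.35 between these times.

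Bpifb1 lay higher on all toxin arrays, by less than Dmbt1 and Pigr. Its log2 signal was 9.0 on the saline array, 10.22 at 24 h and 10.91 at 36 h, then 10.49 and 10.98 on the 48 h pair and 10.43 and 10.55 on the 72 h pair. The toxin arrays spanned 0.76 and were 2.33-fold to 3.94-fold above the saline array. The lowest of them was the 24 h array, in contrast to Pigr and Reg3g, whose 24 h value lay between their arrays of 48 h. The mean difference from the control was 1.74 ± 0.25 at 48 h and 1.49 ± 0.25 at 72 h. The second 72 h array lay above the first 48 h array, so those 2 groups overlapped.

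Reg3g was the member that varied most among the toxin arrays, over a range of 1.68. Its log2 signal was 3.81 on the saline array, 5.90 at 24 h and 4.93 at 36 h, then 6.06 and 5.31 on the 48 h pair and 4.37 and 4.57 on the 72 h pair. The 24 h and first 48 h arrays were 4.25-fold and 4.75-fold above the saline array, and the 72 h arrays 1.48-fold and 1.69-fold. Whether the saline value lies above background is not known, so these folds may rest on a background level. The 36 h array lay below the 24 h array and below both arrays of 48 h, so the course was not a steady decline. The mean difference from the control was 1.88 ± 0.38 at 48 h and 0.66 ± 0.38 at 72 h. Both 72 h arrays of Reg3g lay below both 48 h arrays, as did those of 13.0% of all genes. Of its difference from the control at 24 h, 31.6% was left at the mean of 72 h, against 93.2% for Dmbt1, 74.2% for Pigr and 123% for Bpifb1. The 24 h and 72 h arrays also differ in their sex-linked signal, described at the end.

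Reg3b, the close relative of Reg3g, showed no such course. Its log2 signal was 3.73 on the saline array, 4.01 at 24 h and 3.98 at 36 h, then 3.98 and 3.99 on the 48 h pair and 3.98 on both arrays of 72 h. The 7 arrays held only 4 distinct values as deposited, and ties were common, since only 39.7% of all genes had 7 distinct values. The toxin arrays spanned 0.03. All 6 lay above the saline array, by 0.24 to 0.28, a size at which it ranked between 3036 and 3532 among all genes. The mean difference was 0.25 ± 0.05 at 48 h and 0.24 ± 0.05 at 72 h. The values come without detection calls, so they do not show whether Reg3b is silent in the corpus. Probe sets of relatives can share hybridisation, which was not tested.

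Lcn2 stayed at the level of the control, and whether its signal lies above background is not known. Its log2 signal was 5.05 on the saline array, 5.02 at 24 h and 4.90 at 36 h, then 5.02 and 5.05 on the 48 h pair and 4.98 and 5.13 on the 72 h pair. The saline array lay within the range of the toxin arrays, and 1 of the 6 toxin arrays was above it. The mean difference was -0.02 ± 0.09 at 48 h and 0.00 ± 0.09 at 72 h. The 2 arrays of 72 h lay on either side of the control, by -0.07 and 0.07.

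**Figure D2:**
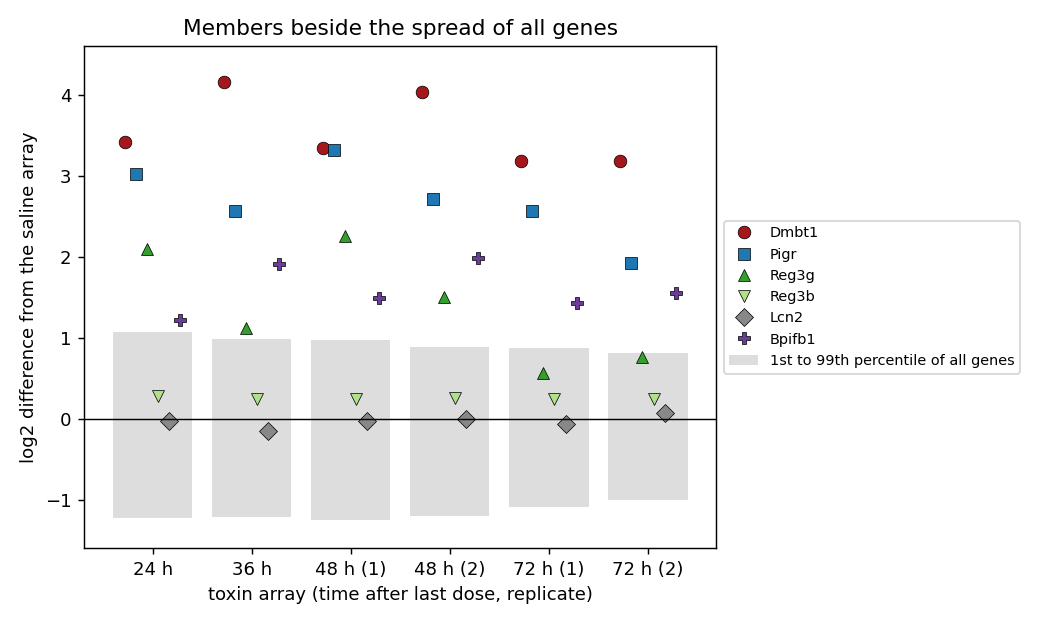
Log2 difference of each member from the saline array (y axis) on each of the 6 toxin arrays (x axis, with replicate numbers in brackets), beside grey bands that hold the 1st to 99th percentile of all 22180 genes on that array. Dmbt1, Pigr and Bpifb1 lie above the band on every array, Reg3g lies above it until 48 h and inside it at 72 h, and Reg3b and Lcn2 lie inside it throughout.

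At 24 h, 4 of the 6 members (Dmbt1, Pigr, Reg3g and Bpifb1) were at least 2-fold above the saline array, as were 1.20% of all genes. At 36 h the same 4 members passed that size, as did 0.933% of all genes. Single arrays were set against a single array at these times, so no test was made. The limma fit called 0% of all genes at a Benjamini-Hochberg adjusted p under 0.05 at 48 h or at 72 h against the control. An unadjusted p under 0.05 was reached by 19.7% of genes at 48 h and by 17.9% at 72 h; the members' own p are not given, since values against this control helped to choose them. All comparisons with the control rest on 1 saline array and share it, so a trait of that array enters every difference.

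The comparison of 72 h with 48 h is the only one with 2 arrays on both sides, and it does not use the saline array. Dmbt1, Pigr and Reg3g had both 72 h arrays below both 48 h arrays, as did 13.0% of all genes. The mean differences were -1.22 ± 0.31 for Reg3g, -0.77 ± 0.35 for Pigr, -0.51 ± 0.28 for Dmbt1, -0.24 ± 0.20 for Bpifb1, -0.01 ± 0.04 for Reg3b and 0.02 ± 0.07 for Lcn2. The difference of Reg3g was -0.84 without the first and -1.59 without the second 48 h array, that of Dmbt1 was -0.85 and -0.17, and that of Bpifb1 was -0.49 and 0.0. That of Pigr was -0.45 without the second and -1.09 without the first 72 h array. Limma called no gene in this comparison, 0% of 22180, and 7.07% had an unadjusted p under 0.05. The slope over the 6 toxin arrays, per 24 h, was -0.63 ± 0.25 for Reg3g, -0.36 ± 0.20 for Pigr, -0.28 ± 0.19 for Dmbt1 and 0.00 ± 0.15 for Bpifb1. No gene was called for its slope (0%), and 8.70% had an unadjusted p under 0.05.

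The members were also compared by the course of their differences from the saline array, using the root mean square distance over the 6 toxin arrays, in log2 units. Among the members, Reg3b and Lcn2 were nearest to each other at 0.30, then Reg3g and Bpifb1 at 0.77 and Dmbt1 and Pigr at 1.03. Of all named genes, the nearest to Dmbt1 was Clca1, a secreted product of mucous cells, at 0.60, followed by Pigr itself at 1.03 and Atp6v0d2, a subunit of the vacuolar proton pump, at 1.25. The nearest to Pigr were Atp6v0d2 at 0.37, the carboxylesterase gene Ces1f at 0.64 and the potassium channel subunit gene Kcne3 at 0.70. For Reg3g they were the kinetochore scaffold gene Knl1 at 0.30, the kinetochore motor gene Cenpe at 0.33 and the proliferation marker Mki67 at 0.35. Mki67 lay above the saline array by 1.94 at 24 h and 1.52 at 36 h, then 1.78 and 1.64 on the 48 h pair and 1.11 and 0.90 on the 72 h pair. Bpifb1 had Taf1d at 0.22, Ly6d at 0.27 and Akr1b8, an aldo-keto reductase gene, at 0.34. For Reg3b the nearest were Faap100, Cebpb and Top1 and for Lcn2 Stk10, Rdh13 and Nr2e1, at 0.01 to 0.03. The courses of these last 2 members are common ones, since 7427 and 13585 genes lay within 0.25 of them. For Dmbt1, Pigr and Reg3g no gene lay within 0.25, and for Bpifb1 1 gene did. All genes share the same 7 arrays and the same control in this measure.

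**Figure D3:**
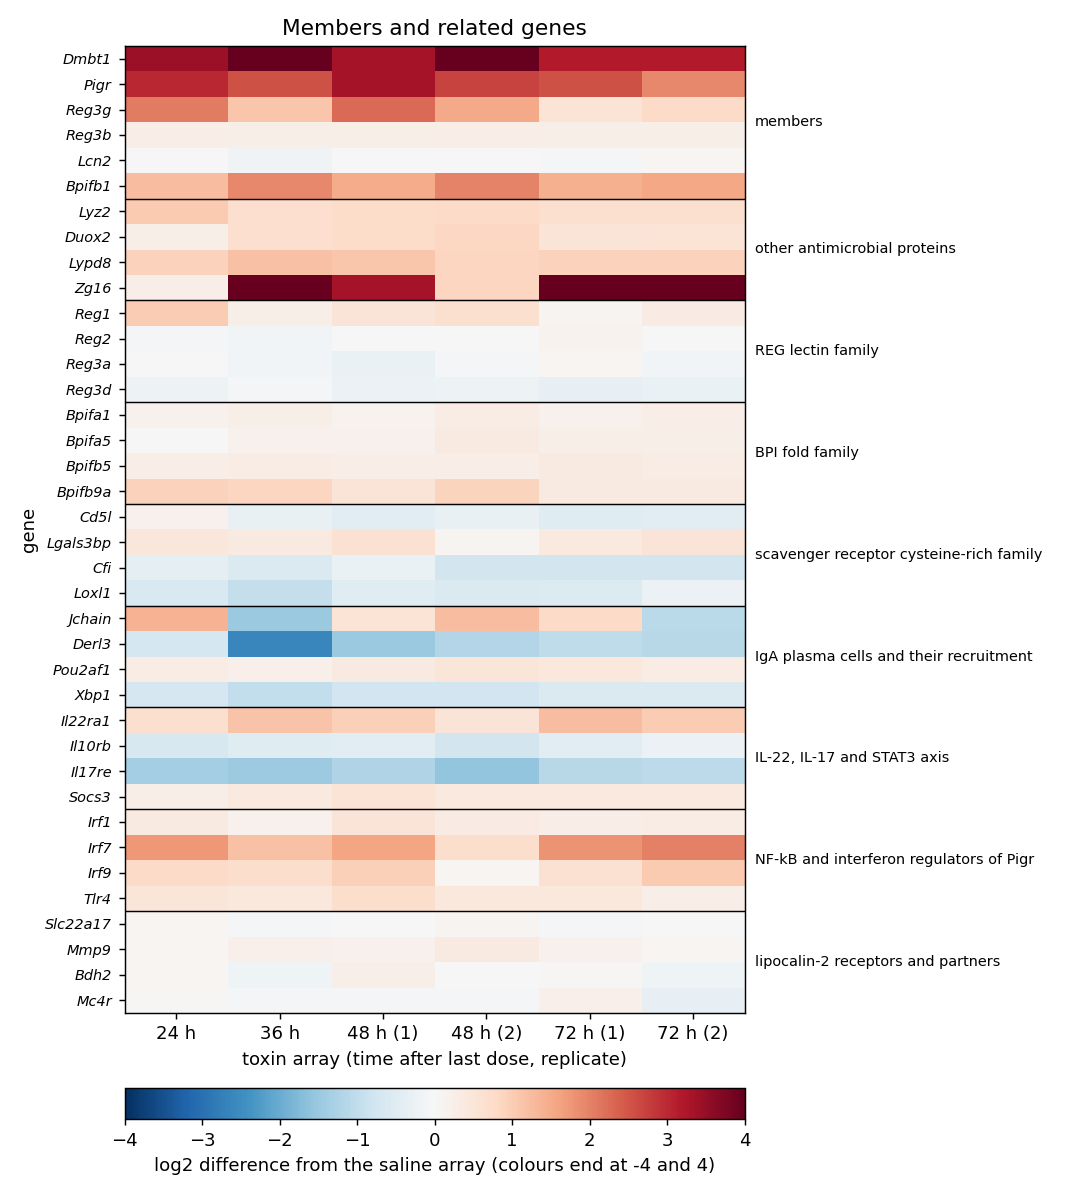
Log2 difference from the saline array (colour, red higher and blue lower, ending at -4 and 4) of the 6 members and of up to 4 genes from each related list (rows) on the 6 toxin arrays (columns). Among the members at the top, Dmbt1, Pigr, Reg3g and Bpifb1 are red to varying depth, and the Reg3b and Lcn2 rows between them are pale. Relatives in the lectin, BPI fold and scavenger receptor families are mostly pale, and Dmbt1 and Zg16 are the only rows that pass 4.

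Families of the members were set beside them, and each count is to be read against the shares of all genes: 20.2% above and 22.6% below the saline array on all 6 toxin arrays, and an unadjusted p under 0.05 for 19.7% at 48 h. The other 5 REG lectins had a median difference between -0.10 and 0.12 on the 6 arrays, while the median of all genes was 0.00 on each. Reg1 came nearest to the course of Reg3g, with log2 signals of 3.00 on the saline array, 4.03 at 24 h and 3.22 at 36 h, then 3.50 and 3.64 on the 48 h pair and 3.12 and 3.33 on the 72 h pair. Whether these signals of Reg1 lie above background is not known. Its difference at 48 h was 0.57 ± 0.13 (adjusted p in limma 0.182), and Reg3d was at -0.21 ± 0.06 (adjusted p in limma 0.225). Of the 16 measured relatives of Bpifb1 in the BPI fold family, 5 lay above and 1 below the saline array on all 6 toxin arrays, or 5 and 3 after quantile normalisation again. Bpifb9a, a gene of that family, was at 0.71 ± 0.20 at 48 h (adjusted p in limma 0.217) and 0.37 ± 0.20 at 72 h. The 17 measured relatives of Dmbt1 among scavenger receptor cysteine-rich proteins had medians between -0.03 and 0.09. None of these relatives passed limma over all genes at 48 h; an unadjusted p under 0.05 was reached by 2 REG, 4 BPI fold and 2 scavenger receptor genes, out of 5, 16 and 17. No relative lay at least 2-fold above the saline array on all 6 toxin arrays.

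Other antimicrobial proteins that were measured numbered 21, with medians from 0.13 to 0.22 above the saline array. Of these, 8 lay above it on all 6 toxin arrays, where 20.2% of all genes did, and none below, or 1 below after quantile normalisation again. At 48 h, 0 passed limma over all genes and 4 had an unadjusted p under 0.05, all higher, near the 19.7% of all genes. At 72 h these counts were 0 and 7, all higher, beside 17.9% of all genes. Lypd8, a secreted protein that keeps flagellated bacteria off the colon epithelium, had log2 signals of 11.69 on the saline array and 12.55 to 12.87 on the toxin arrays, and its difference at 48 h was 0.98 ± 0.13 (adjusted p in limma 0.121). Duox2, an oxidase that supplies hydrogen peroxide, was at 0.77 ± 0.07 (adjusted p in limma 0.120), and the lysozyme gene Lyz2 was at 0.75 ± 0.05 (adjusted p in limma 0.120). Zg16, a lectin of intestinal mucus, had log2 signals of 3.34 on the saline array, 3.60 at 24 h and 8.27 at 36 h, then 6.67 and 4.21 on the 48 h pair and 8.17 and 7.94 on the 72 h pair. It was highest at 36 h, where Reg3g was lower than at 24 h and 48 h, and its 2 arrays of 48 h stood far apart.

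Genes upstream of the members were set beside them. Of 23 measured genes of the IL-22, IL-17 and STAT3 axis, 5 lay above and 6 below the saline array on all 6 toxin arrays. These counts are near the shares of all genes, 20.2% above and 22.6% below. This axis is known to drive Reg3 lectins and Lcn2 in epithelia. Il22ra1, the epithelial subunit of the IL-22 receptor, had log2 signals of 5.07 on the saline array and 5.58 to 6.29 on the toxin arrays, and its difference was 0.73 ± 0.24 at 48 h and 1.11 ± 0.24 at 72 h. Il17re, a subunit of the receptor for IL-17C, was at -1.39 ± 0.18 at 48 h (adjusted p in limma 0.123), with 8.03 on the saline array and 6.46 to 6.98 on the toxin arrays. Il10rb, the shared subunit of the IL-22 and IL-10 receptors, was at -0.58 ± 0.18 and Socs3, a feedback inhibitor of STAT3, at 0.47 ± 0.10. Il22 itself, the ligand, stayed between 1.66 and 2.02 on all 7 arrays. The lowest signal of each array was 1.39 to 1.56, so a change in Il22 may not be seen at this level. Genes of NF-kappaB and interferon signalling, which act on Pigr in epithelial cells, numbered 20, of which 7 lay above and none below the saline array on all 6 toxin arrays, or 6 and 10 above in the 2 other scalings. Of all genes, 20.2% lay above on all 6, or 20.0% and 23.0% in those scalings. As deposited, 22.6% of all genes lay below on all 6. The interferon regulatory factor gene Irf7 differed by 1.72 at 24 h and 1.18 at 36 h, then by 1.58 and 0.69 on the 48 h pair and 1.81 and 2.02 on the 72 h pair. Irf1, an activator of the Pigr gene, was at 0.41 ± 0.10 at 48 h (adjusted p in limma 0.185) and 0.28 ± 0.10 at 72 h. Limma called none of the genes of these 2 lists at 48 h or 72 h, and at 48 h 4 of 23 and 3 of 20 had an unadjusted p under 0.05, beside 19.7% of all genes. Slc22a17, a receptor for lipocalin-2, had log2 signals from 6.13 to 6.31 over all arrays, as level as Lcn2.

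Genes of IgA plasma cells lay on both sides of the saline array. Jchain, which joins IgA into the dimers that Pigr carries, had log2 signals of 6.89 on the saline array, 8.28 at 24 h and 5.39 at 36 h, then 7.45 and 8.11 on the 48 h pair and 7.65 and 5.82 on the 72 h pair. The 36 h and second 72 h arrays lay below the saline array, although Pigr was 5.89-fold and 3.79-fold above it there. The difference of Jchain at 48 h was 0.89 ± 0.95, within the spread between arrays. Derl3, a protein of the secretory pathway that plasma cells and chief cells express, was at -1.33 ± 0.16 at 48 h (adjusted p in limma 0.121), and Xbp1, a transcription factor of both cell types, at -0.76 ± 0.05 (adjusted p in limma 0.120). The plasma cell gene Mzb1 stayed between 4.49 and 5.0, and Ccl28, a chemokine that draws IgA plasma cells to mucosa, between 6.10 and 6.60. Of 19 measured genes of this list, 4 lay above and 4 below the saline array on all 6 toxin arrays, and limma called 0 at 48 h, with 4 at an unadjusted p under 0.05, close to the 20.2%, 22.6% and 19.7% of all genes.

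**Figure D4:**
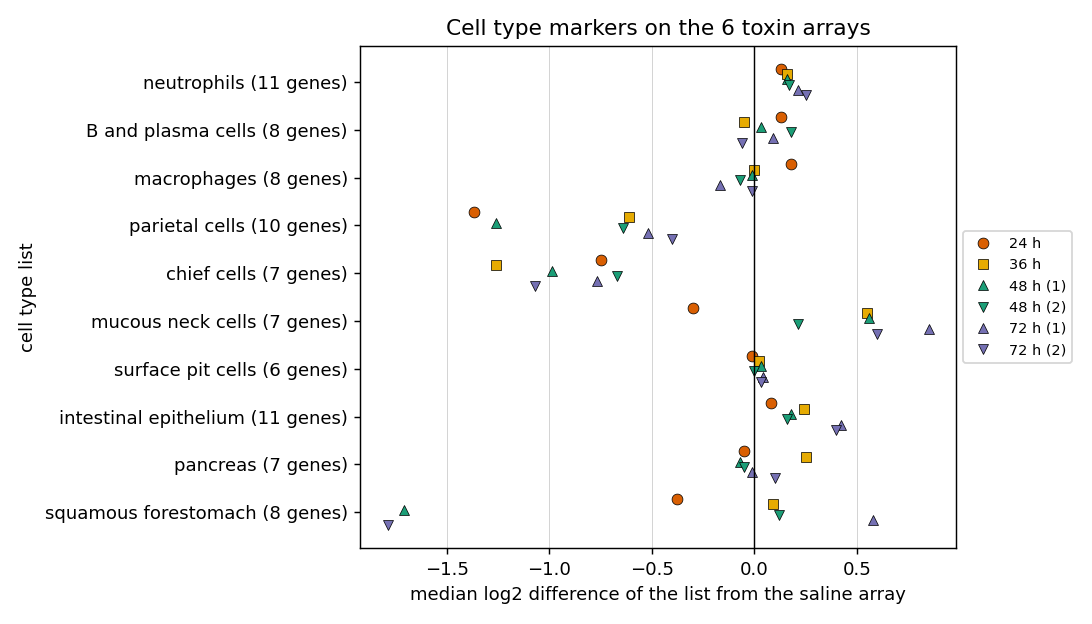
Median log2 difference from the saline array (x axis) of the markers of each of 10 cell types and tissues (y axis), with 1 point for each toxin array. Parietal and chief cell lists lie to the left, the pit cell list lies close to 0 on each array, and the squamous list is far to the left on the first 48 h array (-1.71) and the second 72 h array (-1.79).

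Markers of the cells that could carry these genes were read on the same arrays. Atp4b, the parietal cell gene that drives the transgene, had log2 signals of 12.94 on the saline array, 10.68 at 24 h and 12.33 at 36 h, then 11.66 and 12.39 on the 48 h pair and 12.65 and 12.92 on the 72 h pair. On the saline and second 72 h arrays it stood near the highest signal of each array (13.39 or more), where differences may not be resolved. Of 10 measured parietal cell markers, 9 lay below the saline array on all 6 toxin arrays, as did 22.6% of all genes. The list median was -1.37 at 24 h and -0.52 and -0.40 on the 72 h pair. On that pair Atp4a was at -0.36 and -0.15 and Slc26a7 at -3.38 and -3.72. The 2 arrays with the lowest Atp4b, at 24 h and the first at 48 h, were the 2 with the highest Pigr and Reg3g, while Dmbt1 and Bpifb1 were highest at 36 h and on the second 48 h array. Surface pit cell markers had list medians between -0.01 and 0.04, but Tff1, Gkn1, Gkn2 and Psca read 12.65 to 13.16, near the highest signal of each array (13.39 or more), where differences may not be resolved. Muc5ac, the mucin of these cells, read 11.81 on the saline array and 12.11 to 12.39 on the toxin arrays. The 7 mucous neck cell markers had medians of -0.30 at 24 h and 0.21 to 0.85 on the later arrays, with a summed log2 signal of 12.50 on the saline array and 12.06 to 13.00 on the toxin arrays. Of these, 3 lay above the saline array on all 6 toxin arrays (Cftr by 0.60 to 2.41, Gkn3 by 0.07 to 1.85, and Aqp5 by 0.28 to 1.25). Another 2 lay below on all 6 (A4gnt by -1.54 to -0.21 and Galnt6 by -0.80 to -0.15). Of all genes, 20.2% lay above and 22.6% below on all 6. Muc6 (-0.41 to 0.56) and Tff2 (-0.31 to 0.91) lay on both sides of the saline array. The 11 neutrophil genes, of which Lcn2 could be another, had a summed log2 signal of 7.42 on the saline array and 7.59 to 7.70 on the toxin arrays. Of them, 6 lay above the saline array on all 6 toxin arrays, or 5 after quantile normalisation again, and 0 below. Of all genes, 20.2% lay above and 22.6% below on all 6. Mpo lay above by 0.30 to 0.56, with signals of 3.89 to 4.45, while Cxcr2 differed by -0.26 to 0.20. S100a8 read 2.81 to 3.18. The signals of Mpo and S100a8 may be background levels. The 8 genes of B and plasma cells had a summed log2 signal of 8.50 on the saline array and 7.31 to 8.99 on the toxin arrays. Among 11 markers of intestinal epithelium the summed log2 signal went from 9.44 to between 10.44 and 11.78, while the list medians were 0.08 to 0.42. Of the 11, 6 lay above and 2 below the saline array on all 6 toxin arrays, beside 20.2% and 22.6% of all genes. Those below were Lct, by -0.30 to -0.18, and Mttp, by -0.38 to -0.09. Fcgbp was at -0.52 at 24 h and 4.93 at 36 h. Those above were the secreted products Clca1, at 6.90 on the saline array and 9.23 to 10.84 on the toxin arrays, Muc2 and Spink4, and the cell-bound Fabp2 (6.77 against 6.86 to 8.13), Vil1 (6.98 against 7.07 to 8.07) and Cdx1 (4.31 against 4.42 to 4.83). The intestinal regulator Cdx2 stayed between 4.0 and 4.13 and the brush border enzyme Sis between 2.73 and 2.82, and whether these signals lie above background is not known. The part of these cell types in the members' differences was not tested.

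Some properties of the arrays cut across the groups. The 8 squamous markers of the forestomach had a summed log2 signal of 7.10 on the first 48 h and 7.01 on the second 72 h array, against a range of 8.48 to 9.97 among the remaining 5. Dmbt1 differed from the saline array by 3.34 and 3.18 on those 2 arrays and by 3.18 to 4.15 on the other toxin arrays, Pigr by 3.32 and 1.92 against 2.56 to 3.02, Reg3g by 2.25 and 0.76 against 0.56 to 2.09, and Bpifb1 by 1.49 and 1.55 against 1.22 to 1.98. Xist, which is transcribed in female cells, had log2 signals of 8.13 and 9.17 on the saline and 24 h arrays and 2.70 to 3.27 on the others, and the Y-linked gene Eif2s3y went the other way. The comparisons of 36, 48 and 72 h with the control thus also compare these patterns. The 24 h array, with the pattern of the saline array, had Dmbt1 at 3.41, Pigr at 3.02, Reg3g at 2.09 and Bpifb1 at 1.22 above it.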

How the data were processed

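Total RNA was labelled as biotinylated cDNA and hybridised to 1-colour arrays, 1 per sample. The deposited values, log2 signal from 7 arrays and 41345 probe sets, came from RMA in Partek, per the submitters' processing notes, which name no version. They were used as deposited. All 7 columns were used, and 0 columns of other samples were present. The table holds no detection calls, so whether a signal lies above background is not known. Precision is limited by how many arrays there are.

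The platform annotation gave 23521 probe sets with 1 gene, 1814 with several and 16010 with none. The probe set with the highest mean stood for a gene, which left 22180 genes. Symbols were checked by Entrez identifier against the gene table of GRCm38.p6, with 23328 probe sets matched and 0 symbols changed. The build behind the array is not given.

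Tests used the limma package (3.58.1, under R 4.3.3) with two-sided moderated statistics and Benjamini-Hochberg adjustment over all genes, fitting a mean per group over all 7 arrays (2 residual and 1.15 prior degrees of freedom) and a slope in hours over the 6 toxin arrays (4 and 1.83). The lone control is assumed to vary like the 48 h and 72 h pairs. The design text calls these pairs independent and does not say from which animals, so the spread measured may be in part technical. Exactly equal deposited values, with no rounding, occurred on both arrays of a pair in 11.2% of genes at 48 h and 10.7% at 72 h. Replicate numbers are shared in the titles only, and the differences within the pairs correlated at -0.13 (Pearson, over genes, themselves no independent replicates). The fits were run on simulated data with independent normal noise. That noise had no ties and no trait of a single array, so the run does not show how the fits behave on these arrays.

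The members and the gene lists were chosen with earlier results of these data known. A rule proposed genes to name beside the members. It took up to 4 per related list with the largest difference at 48 h and 1 with the largest difference of 72 h from 48 h. It also took 2 per cell type list with the highest mean, and the 3 genes nearest to each member. Not all of these are named, and many cell type genes were instead named after their values were seen. Mzb1, Ccl28, Il22, S100a8, Mpo, Slc26a7, Cdx1, Cdx2, Sis, Lct, Mttp, Fcgbp, Fabp2, Vil1, Muc2, Muc5ac, Tff1, Gkn1, Gkn3, Cftr, Aqp5, A4gnt, Galnt6, Xist and Eif2s3y were named after their values were seen. Alternatives were quantile normalisation again, array medians subtracted, dim genes left out, the mean of probe sets, an intensity trend, each 48 h and 72 h array left out, and a replicate block.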

Additional observations from a re-analysis of the deposited data

Results flagged for a closer look

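Cela1, an elastase gene read among pancreatic markers, lay on opposite sides of the saline array at the 2 late times: by -0.27 and -0.05 on the 48 h arrays and by 1.20 and 1.53 on the 72 h arrays. The difference between 72 h and 48 h was 1.52, with an adjusted p in limma of 0.705 over all genes. No member had both 48 h arrays on one side of the saline array and both 72 h arrays on the other. No group had the 4 arrays needed for a check of single outlying arrays.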

How the results depend on the processing

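No gene was called in the 4 comparisons as reported. With quantile normalisation again, 12 genes were called at 48 h and 6 at 72 h against the control, and with array medians subtracted 77 and 13. The cause was not tested. Leaving out dim genes, the mean of probe sets, an intensity trend, leaving out any 48 h or 72 h array (0 to 0 calls in each comparison), and a replicate block for 72 h against 48 h (0 genes, 1341 at an unadjusted p under 0.05 against 1569) gave no calls. The slope without the 24 h array, a setting chosen after seeing the data, gave 0 calls as well. Movement was judged by the moderated residual SD of each gene in the limma fit. Of the members' differences, 0 of 60 moved by 1 such SD or more under the 2 other scalings. Of the 48 that use an array left out, 16 did. Among all recomputed differences of the members, the sign differed in 3, all of Reg3b or Lcn2 and at most 0.06 in size. For Dmbt1 the difference at 48 h lay between 3.34 and 4.03 with either array left out and between 3.68 and 3.72 in the other settings; for Pigr these ranges were 2.71 to 3.32 and 3.00 to 3.06.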
